A study of Mus musculus with 18 samples.

Results

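Livers of female C57BL/6 mice lacking AHR, the aryl hydrocarbon receptor, in hepatic stellate cells were compared with livers of AhRfl/fl mice, all without dioxin. The AhRΔHSC group, named dHSC here, has 3 mice, and the AhRfl/fl group, labelled WT, has 3 mice. Every mouse of both groups was gavaged with peanut oil every 4 days for 92 days. Membership was taken from the genotype and treatment labels alone, which gives 6 of the 18 libraries of the series, and all 55536 genes of the count files were taken, of which 14835 had enough reads to be tested. The libraries hold poly-T selected mRNA from 10 mg of whole liver, with 1 mouse per library, and mice are named by the number in their label (dHSC 5, 11 and 17, WT 1, 7 and 13). dHSC and WT mice gavaged with TCDD, a dioxin and strong AHR ligand, at 100 µg/kg on the same schedule, and vehicle mice with AHR deleted in hepatocytes (AhRΔHep, named dHep), serve below as further comparisons, with 3 mice each. The Cre driver, the deleted part of the gene and the age of the mice are not given in the sources used here.

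AHR is a ligand-activated transcription factor that waits in the cytoplasm bound to HSP90, moves to the nucleus on binding a ligand, pairs with ARNT and binds DNA at a short core motif. Its best known targets are the cytochromes Cyp1a1, Cyp1a2 and Cyp1b1, and it is held in check by its own targets Ahrr, a repressor that competes for ARNT, and Tiparp, an enzyme that ADP-ribosylates AHR. Hepatic stellate cells lie between the sinusoidal endothelium and the hepatocytes, store retinyl esters when quiescent, and turn into contractile, collagen-producing myofibroblasts when the liver is injured.

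Upstream windows of 2 textbook AHR targets and of 2 genes that recur below are printed to show where the AHR core motif stands. Each window is the 250 bases before the RefSeq transcript start (GRCm38.p6), written 5′ to 3′ on the gene's strand, with the letters GCGTG or, for the other strand, CACGC in capitals. The Cyp1a1, Rab6b and Serpine2 windows lie inside the GENCODE spans of these genes, whose outermost annotated starts are farther upstream than the RefSeq start.
Cyp1a1 chr9:57697363-57697612 (plus strand): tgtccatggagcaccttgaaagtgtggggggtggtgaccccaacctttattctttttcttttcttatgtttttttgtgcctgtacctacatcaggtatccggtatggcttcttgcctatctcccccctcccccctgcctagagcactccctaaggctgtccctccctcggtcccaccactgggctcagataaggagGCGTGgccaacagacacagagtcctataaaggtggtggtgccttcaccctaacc
Ahrr chr13:74292332-74292581 (minus strand): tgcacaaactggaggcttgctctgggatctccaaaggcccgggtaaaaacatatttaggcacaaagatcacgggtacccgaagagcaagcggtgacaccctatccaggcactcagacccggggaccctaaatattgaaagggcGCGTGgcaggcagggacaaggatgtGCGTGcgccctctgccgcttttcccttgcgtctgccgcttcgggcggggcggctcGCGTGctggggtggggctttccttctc
Rab6b chr9:103111824-103112073 (plus strand): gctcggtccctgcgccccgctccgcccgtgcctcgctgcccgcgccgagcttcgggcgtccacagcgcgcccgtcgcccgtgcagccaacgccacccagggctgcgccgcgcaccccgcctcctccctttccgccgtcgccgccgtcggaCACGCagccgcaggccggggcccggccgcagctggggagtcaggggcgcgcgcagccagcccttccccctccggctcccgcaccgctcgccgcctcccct
Serpine2 chr1:79858666-79858915 (minus strand): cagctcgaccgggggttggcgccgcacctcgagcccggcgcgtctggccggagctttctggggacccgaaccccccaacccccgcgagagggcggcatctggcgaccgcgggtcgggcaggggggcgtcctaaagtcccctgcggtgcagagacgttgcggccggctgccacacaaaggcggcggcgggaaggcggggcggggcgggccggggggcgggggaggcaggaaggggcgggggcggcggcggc
The motif occurred once in the Cyp1a1 window, 3 times in the Ahrr window, once in the Rab6b window and not in the Serpine2 window. Among the AHR target list, 7 of the 12 genes with a RefSeq window held it (58.3%). Among the genes named below, 5 of 16 with a window held it (31.2%), against 47.2% of the tested genes with a window and 30.9% of all genes in the RefSeq table. A match is a description of these letters and not a site in use.

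Ahr itself was detected in every liver. It had 45.5, 40.0 and 32.7 CPM in dHSC livers, against 32.7, 51.8 and 70.0 CPM in WT livers, where CPM is the read count scaled to a common library total after correction for library composition. The groups overlapped, since dHSC 5 and 11 lay inside the range of the WT livers and dHSC 17 stood level with WT 1. The log2 difference, dHSC minus WT, was -0.38 with a 95% interval of -1.31 to 0.54 (adjusted p = 1, quasi-likelihood test of edgeR, adjusted by Benjamini-Hochberg across the tested genes). Counts over the whole gene in whole liver cannot check a deletion in one cell type, because other liver cells keep the gene and the labels do not say which exons were removed. In bulk samples, fewer cells of a type and less RNA per cell cannot be told apart. Of the 34 tested genes within 5 Mb of Ahr, 0 were called, 2 had an unadjusted p below 0.05, beside 1.48% of all genes, and the log2 differences ran from -2.25 (Prkar2b) to 1.31. None of the 34 had groups that did not overlap, beside 2.24% of all genes higher and 2.16% lower without overlap.

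Arnt, the dimer partner of AHR, had 46.4, 42.4 and 21.2 CPM in dHSC livers, against 55.3, 34.3 and 44.9 CPM in WT livers, with a log2 difference of -0.29 (-1.22 to 0.64). dHSC 17 was the lowest of the 6 livers, and the groups overlapped. All 8 tested partners had adjusted p = 1.

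A pair of the 6 libraries stood apart, WT 1 on muscle genes and dHSC 17 on the first principal component. WT 1 held a summed 24-gene skeletal muscle level of 3061 CPM, against 42.4, 40.1 and 83.0 CPM in the dHSC livers and 33.6 and 45.0 CPM in WT 7 and 13. In it, 21 of the 24 listed muscle genes exceeded 4 times the highest of the other 5 livers, beside 228 of the 14835 genes tested. Ckm, muscle creatine kinase, had 3095 reads in WT 1 and 1 read in the other 5 together. dHSC 17 had 2.67% of its counts outside protein-coding genes, against 1.36% and 1.37% in dHSC 5 and 11 and 1.30% to 1.55% in the WT livers, and it stood at 51.7 on the first principal component of all libraries (42.3% of the variance), where the other 5 livers lay between -39.4 and -15.3. Mitochondrial genes gave 9.29% of the counts in WT 7 and 8.70% in dHSC 17, against 5.55% to 6.25% in the others. Exact permutation tests of these measures between the groups gave p = 0.5 for the share outside protein-coding genes, 0.7 for the mitochondrial share and 0.8 for the muscle sum and the component (two-sided). With 3 against 3 mice, p cannot go below 0.1. Total counts were 22279872, 13678637 and 15942489 in the dHSC livers and 16637535, 23294076 and 17824441 in the WT livers. The part these libraries play in the results was not tested beyond the values given with each of them left out.

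No gene passed the test between dHSC and WT livers of vehicle mice. Of 14835 genes, 0 were called at an adjusted p below 0.05 by edgeR's quasi-likelihood test (0% of the genes), and the lowest adjusted p was 0.444. At an unadjusted p below 0.05 there were 220 genes (1.48%), of which 55 were higher (0.371%) and 165 lower (1.11%) in dHSC livers. DESeq2 called 5 genes (0.0337%), described below. Livers of the groups did not overlap, with all 3 dHSC livers above all 3 WT livers, for 333 genes (2.24%), and the reverse held for 321 genes (2.16%). The lower side leaned on 1 mouse, since WT 1 exceeded 4 times every other liver in 116 of the 220 genes below an unadjusted 0.05. The same held for 228 of all 14835 genes tested. Without WT 1 the number below 0.05 was 163. Without WT 7 it was 340, and 0 genes were called with any 1 of the 6 livers left out.

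The intervals show how large a difference these livers could have hidden. The median half-width of the 95% interval was 0.94 on the log2 scale over all genes, and 0.72 for the 6331 genes between 10 and 100 CPM, against 1.79 for the 2407 genes under 1 CPM. The whole interval lay within a 2-fold change either way for 5710 genes (38.5%) and within a 4-fold change for 11795 genes (79.5%). The median log2 difference over all genes was -0.02. For most genes under 1 CPM a 4-fold difference was not excluded at this depth with 3 mice a side.

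**Figure D1:**
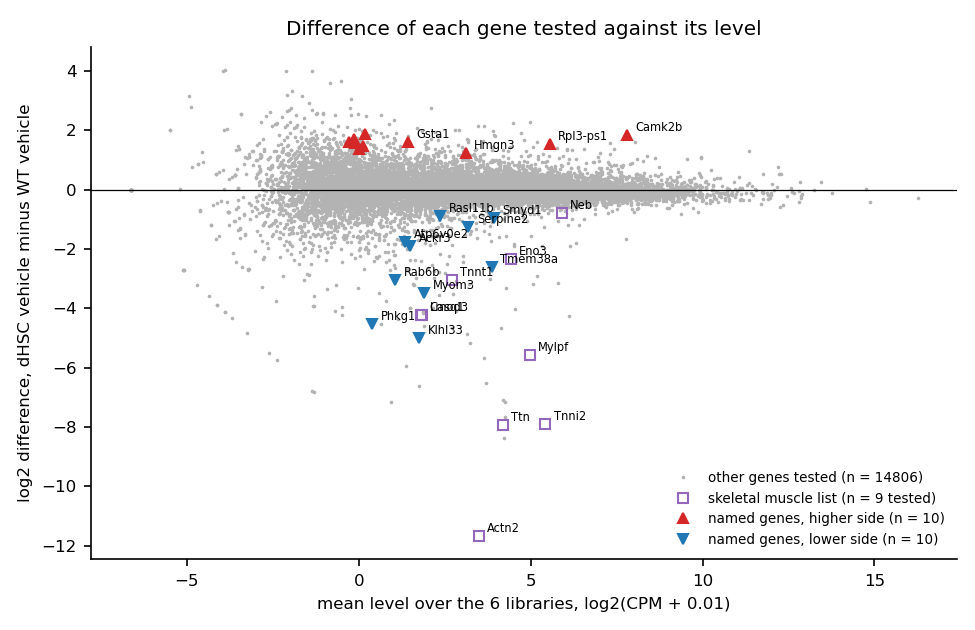
Log2 difference, dHSC vehicle minus WT vehicle, of each of the 14835 genes tested (vertical axis) against its mean level over the 6 libraries as log2(CPM + 0.01) (horizontal axis). Grey points are other genes, triangles are the 20 named genes and squares are the 9 tested skeletal muscle genes, whose median lay at -4.23; Actn2 was at 0 in all dHSC livers, so its position is a fitted value.

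The 10 genes named on each side are those with the smallest unadjusted p among annotated genes of at least 1 CPM in a group and with no overlap between the groups. None passed the test, and their adjusted p ran from 0.649 to 1. On the lower side the smallest unadjusted p belonged to Rab6b, a Golgi-associated small GTPase of the RAB6 family best known from neurons (chr9:103111787-103185276, plus strand, GRCm38). It had 0.272, 0.663 and 0.422 CPM in dHSC livers, against 7.68, 1.57 and 1.78 CPM in WT livers. All 3 dHSC livers lay under 1 CPM and all 3 WT livers over it, with WT 1 the highest. The log2 difference was -3.03 (-4.28 to -1.78), with an unadjusted p of 9.83e-05 and an adjusted p of 0.649 by edgeR, and it was -1.90 without WT 1. Its annotated span overlaps Gm37166, so reads in the shared part could not have been assigned to either.

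Atp6v0e2, a small subunit of the membrane sector of the vacuolar proton pump, had 1.27, 1.11 and 1.06 CPM in dHSC livers, against 4.87, 5.10 and 1.78 CPM in WT livers. The dHSC livers were close together, and WT 13 was nearest to them. The log2 difference was -1.77 (-2.57 to -0.97, adjusted p = 0.906, edgeR), and -1.58 without WT 1. Serpine2, protease nexin-1, a secreted inhibitor of thrombin and other serine proteases (chr1:79794197-79861180, minus strand), had 5.52, 4.27 and 6.33 CPM in dHSC livers, against 13.5, 13.6 and 11.4 CPM in WT livers. Its WT livers stood close together and well above all dHSC livers, without a lead from WT 1. The log2 difference was -1.25 (-1.97 to -0.54), with an unadjusted p of 0.00191 and an adjusted p of 1 by edgeR, and it was -1.22 without WT 1 and -1.38 without dHSC 17. Rasl11b, a small GTPase of the RAS family, had 4.07, 3.09 and 3.66 CPM in dHSC livers, against 5.96, 8.63 and 5.40 CPM in WT livers. WT 7 was the highest, and the log2 difference was -0.88 with all livers, -0.96 without WT 1 and -0.65 without WT 7.

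In the other 6 genes of the lower side WT 1 was the highest of the 6 livers by a wide margin. Phkg1, the muscle catalytic subunit of phosphorylase kinase, had 0.0905, 0.0737 and 0.141 CPM in dHSC livers, against 6.82, 0.504 and 0.172 CPM in WT livers. Tmem38a, a potassium channel of the sarcoplasmic reticulum, had 4.57, 3.17 and 4.501 CPM in dHSC livers, against 63.7, 6.22 and 4.94 CPM in WT livers. Myom3, a protein of the muscle M-band, had 0.588, 0.737 and 0.492 CPM in dHSC livers, against 18.7, 0.785 and 1.03 CPM in WT livers. In each of the 3, WT 1 was more than 10 times higher than either other WT liver, and WT 7 and 13 stood nearer to the dHSC livers than to WT 1. Without WT 1 the log2 differences were -1.68 for Phkg1, -0.45 for Tmem38a and -0.58 for Myom3, against -4.54, -2.61 and -3.49 with it. Klhl33, a kelch-repeat protein with 10 reads over the dHSC livers, stood at -0.64 without WT 1 against -5.00 with it. Ackr3, the scavenger receptor for the chemokine CXCL12, had 1.49, 1.62 and 0.422 CPM in dHSC livers, against 9.23, 2.30 and 1.84 CPM in WT livers, and its difference was -0.80 without WT 1 against -1.90 with it. Smyd1, a muscle histone methyltransferase, stood at -0.41 without WT 1 against -0.97 with it, and the spans of Phkg1 and Smyd1 each overlap 4 other annotated genes.

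On the higher side the smallest unadjusted p belonged to Rpl3-ps1, a processed pseudogene of the ribosomal protein gene Rpl3 (chrX:13202571-13203780, plus strand). It had 86.7, 79.0 and 44.5 CPM in dHSC livers, against 21.7, 30.4 and 20.7 CPM in WT livers, with a log2 difference of 1.53 (0.75 to 2.31, adjusted p = 1, edgeR). A second pseudogene of the same parent, Rpl3-ps2, had 1.222, 1.18 and 1.69 CPM in dHSC livers, against 0.745, 0.168 and 0.459 CPM in WT livers. Rpl3 itself had 260.2, 246 and 154 CPM in dHSC livers, against 321, 395 and 308 CPM in WT livers, with a log2 difference of -0.63 (-1.48 to 0.22), so for the parent gene all dHSC livers lay below all WT livers while for both pseudogenes they lay above. Reads of near-identical copies can be split between gene and pseudogene, so these 3 values are uncertain.

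Camk2b, the beta subunit of calcium/calmodulin-dependent kinase II, had 266, 358 and 432 CPM in dHSC livers, against 173, 42.3 and 79.6 CPM in WT livers, with a log2 difference of 1.84 (0.51 to 3.16). The dHSC livers were all above the WT livers, and the WT livers spanned a wide range with WT 1 the highest. Without WT 1 the difference was 2.53 (unadjusted p = 0.00264, adjusted p = 1, edgeR). Gsta1, an alpha-class glutathione S-transferase of the AHR target list, had 4.03, 3.98 and 4.22 CPM in dHSC livers, against 0.573, 2.19 and 1.26 CPM in WT livers. The dHSC livers were nearly equal and all above the WT livers, and the log2 difference was 1.60 (0.56 to 2.63, adjusted p = 1, edgeR). Its close paralogue Gsta2 had 81.5, 48.0 and 75.9 CPM in dHSC livers, against 70.3, 119.8 and 61.1 CPM in WT livers, with a log2 difference of -0.29 (-1.06 to 0.48), and reads of the pair can be split between them, so both values are uncertain.

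Hmgn3, a nucleosome-binding protein, had 9.78, 14.9 and 11.7 CPM in dHSC livers, against 2.01, 4.37 and 8.95 CPM in WT livers, a log2 difference of 1.24 (0.22 to 2.26) in which WT 13 came close to the dHSC livers. Pcyt1b, an enzyme of phosphatidylcholine synthesis, had 1.222, 1.55 and 1.34 CPM in dHSC livers, against 0.287, 0.392 and 0.574 CPM in WT livers. Rgs1, a regulator of G-protein signalling found in leukocytes, had 2.17, 1.33 and 1.83 CPM in dHSC livers, against 0.516, 0.280 and 0.631 CPM in WT livers. Both were low, with log2 differences of 1.69 and 1.89, and both had every dHSC liver above every WT liver. The remaining members of the higher side were Pls1, an actin-bundling protein, Psma8, a proteasome subunit known from testis, and the antisense transcript Etaa1os, with log2 differences between 1.37 and 1.60 and group means under 2 CPM.

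**Figure D2:**
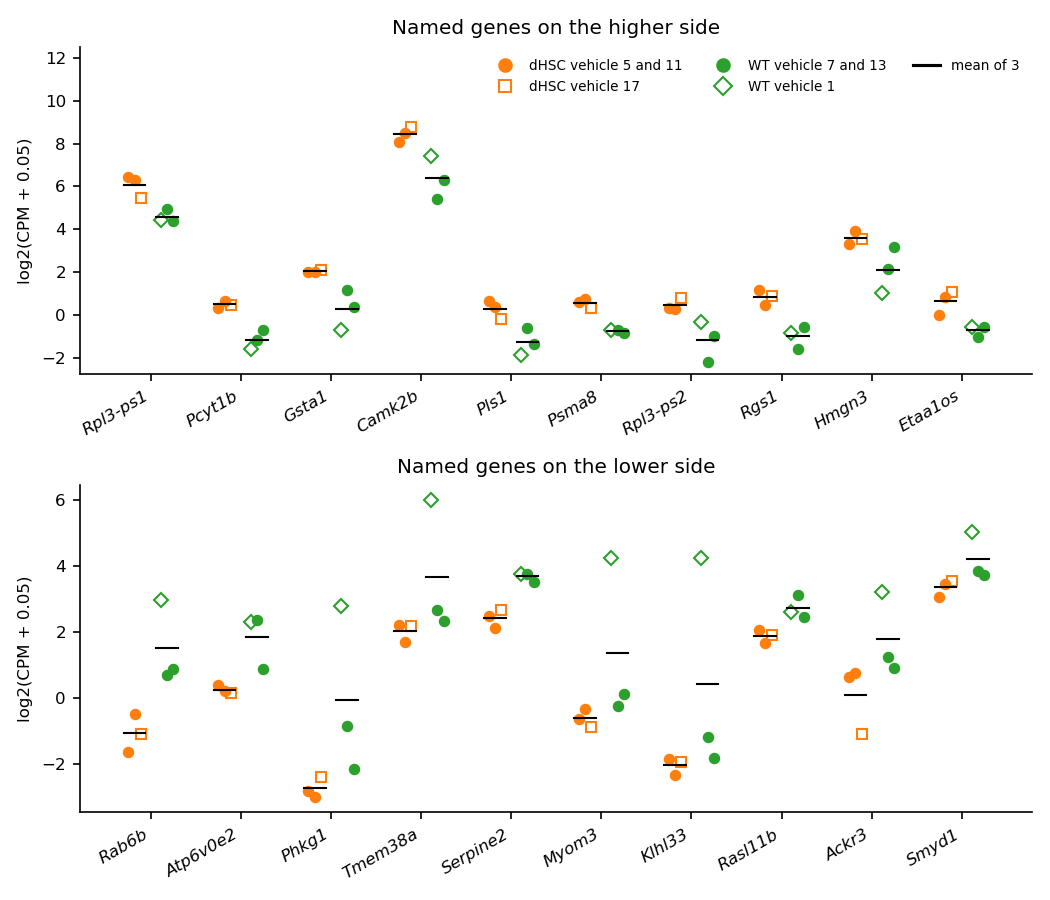
Level of each named gene in each library as log2(CPM + 0.05), with dHSC vehicle livers in orange left of WT vehicle livers in green and bars at the mean of the 3 values on this scale. On the higher side all dHSC points lie above all WT points; on the lower side the open diamond, WT 1, lies far above WT 7 and 13 for Phkg1, Tmem38a, Myom3 and Klhl33 and level with them for Serpine2.

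DESeq2's 5 genes included Rab6b (adjusted p = 0.00497) and Atp6v0e2 (adjusted p = 0.0416), and 3 transcripts that the rule for named genes passes over because their symbols are clone or predicted names. These 3 were chosen after their values were seen. The lincRNA 2610035D17Rik had 0.317, 0.221 and 0.774 CPM in dHSC livers, against 4.01, 3.59 and 3.21 CPM in WT livers. Its WT livers were close together without a lead from WT 1, and the log2 difference was -3.04 (-4.16 to -1.92), with an adjusted p of 0.444 by edgeR and 0.00027 by DESeq2. It had the lowest adjusted p of all genes in both tools. Its edgeR difference was -2.96 without WT 1 and -3.68 without dHSC 17. The lincRNA AC102496.1 had 27.8, 38.8 and 44.9 CPM in dHSC livers, against 9.69, 8.63 and 4.94 CPM in WT livers, a log2 difference of 2.26 (1.17 to 3.35) with an adjusted p of 1 by edgeR and 0.0416 by DESeq2. The transcript 5830444B04Rik had no read in any dHSC liver, against 0.401, 0.560 and 1.32 CPM in WT livers, which is at least 12.6-fold lower in dHSC livers when the group is set to 3 reads in all. Its annotated span overlaps that of Cfap74, so reads in the shared part could not have been assigned to either. Cfap74 itself had no read in any dHSC liver either, against 0.917, 0.0560 and 0.115 CPM in WT livers (19 reads, most of them in WT 1).

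Stellate cell markers were detected in both groups, and the tested ones overlapped between the groups, as most genes did. Of the 20 genes of the quiescent stellate list, 18 were tested, 0 were called and 18 overlapped between the groups. That is near the share over all genes, of which 2.24% were higher and 2.16% lower without overlap. Of the 18, 7 were above and 11 below 0, and their median log2 difference was -0.09, beside -0.02 over all genes. With 1 liver left out at a time the median ran from -0.33 (without WT 7) to 0.11 (without WT 13). Summed over the list, which includes Des, the dHSC livers had 1343, 1233 and 1149 CPM and the WT livers 1713, 1191 and 1418 CPM. Cxcl12, a chemokine of stellate and endothelial cells, had 395, 446 and 308 CPM in dHSC livers, against 492, 446 and 476 CPM in WT livers, a log2 difference of -0.30 (-1.21 to 0.61), and dHSC 17 was the lowest. Reln, the secreted glycoprotein reelin, had 66.1, 53.2 and 47.9 CPM in dHSC livers, against 52.7, 29.5 and 53.8 CPM in WT livers. Colec11, a collectin, had 47.6, 44.5 and 63.8 CPM in dHSC livers, against 39.2, 42.7 and 48.2 CPM in WT livers. Angptl6, an angiopoietin-like secreted protein, had 17.02, 15.6 and 16.9 CPM in dHSC livers, against 16.4, 14.5 and 15.7 CPM in WT livers. In Reln, Colec11 and Angptl6 the livers overlapped, and the log2 differences were 0.30 (-0.31 to 0.91), 0.26 (-0.31 to 0.83) and 0.09 (-0.56 to 0.74), so each interval lay within a 2-fold change.

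Rgs5, a regulator of G-protein signalling known from pericytes and stellate cells, had 48.6, 59.1 and 25.9 CPM in dHSC livers, against 113, 37.4 and 62.6 CPM in WT livers, with a log2 difference of -0.67 (-1.70 to 0.35). Dcn, the proteoglycan decorin, had 204, 176 and 79.3 CPM in dHSC livers, against 268, 149 and 194 CPM in WT livers. dHSC 17 was the lowest of the 6 livers in both. The same liver was low for other stellate secreted factors. Bmp5, a bone morphogenetic protein, had 11.1, 9.06 and 0.774 CPM in dHSC livers, against 9.34, 2.24 and 8.61 CPM in WT livers. Prelp, a leucine-rich repeat matrix protein, had 11.6, 10.5 and 0.914 CPM in dHSC livers, against 10.3, 2.24 and 11.3 CPM in WT livers. Hgf, the hepatocyte growth factor, had 19.3, 14.8 and 1.83 CPM in dHSC livers, against 15.5, 4.203 and 14.9 CPM in WT livers. In all 3, dHSC 5 and 11 stood level with WT 1 and 13, while dHSC 17 was lowest and WT 7 the next lowest, and each interval reached past a 4-fold change either way. Des, desmin, a marker shared by stellate cells and muscle, had 6.61, 4.71 and 14.5 CPM in dHSC livers, against 179.9, 7.57 and 5.91 CPM in WT livers, and its log2 difference of -2.91 was 0.35 without WT 1. Lrat and Gfap, a pair of defining markers, were listed at 0 in all 6 livers. Their spans overlap other annotated genes (Rbm46os and Gm26668), and in these files 1290 of 1290 protein-coding genes lying wholly inside another gene's span had 0 reads in every library, against 25.3% of 11798 genes clear of others, so these 0 values cannot be read as absence.

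The retinoid list, which covers storage, transport and breakdown of vitamin A, had a median log2 difference of -0.08 over 17 tested genes with 0 called, and from -0.17 to -0.04 with 1 liver left out at a time. Cyp26a1, a retinoic acid hydroxylase, had 50.7, 29.8 and 23.6 CPM in dHSC livers, against 57.8, 20.3 and 46.3 CPM in WT livers. Rarb, a retinoic acid receptor that is itself a retinoic acid target, had 5.70, 4.13 and 8.72 CPM in dHSC livers, against 5.27, 1.29 and 5.05 CPM in WT livers. The groups overlapped in both, and WT 1 and 7 marked the ends of the WT range. Cyp26b1, another retinoic acid hydroxylase, had 12.3, 8.18 and 2.88 CPM in dHSC livers, against 20.9, 0.280 and 29.7 CPM in WT livers, and WT 7 was the lowest of the 6.

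Contractile genes of myofibroblasts had a median well below 0, and the values that set it were those of 1 WT liver. Their median log2 difference was -1.49 over 15 tested genes with 0 called, 4 of them lower at an unadjusted p below 0.05 beside 1.11% of all genes, and it was 0.25 without WT 1. Acta2, smooth muscle alpha-actin, had 3.44, 6.26 and 5.28 CPM in dHSC livers, against 31.6, 7.01 and 3.27 CPM in WT livers. Tpm2, a tropomyosin, had 5.79, 3.76 and 11.5 CPM in dHSC livers, against 379, 11.7 and 7.63 CPM in WT livers. Myh11, smooth muscle myosin heavy chain, had 4.71, 6.56 and 6.68 CPM in dHSC livers, against 38.2, 4.37 and 2.70 CPM in WT livers. WT 1 was the highest liver in each, and WT 7 and 13 lay among or near the dHSC livers. The log2 difference of Acta2 was -1.49 (-3.84 to 0.87) and -0.05 without WT 1. WT 1, the liver that carried the skeletal muscle genes, exceeded 4 times every other liver in 9 of the 15 genes, beside 228 of the 14835 genes tested. Cald1, caldesmon, had 302, 314 and 109 CPM in dHSC livers, against 177, 261 and 349 CPM in WT livers. Mylk, myosin light chain kinase, had 64.4, 56.1 and 33.5 CPM in dHSC livers, against 47.7, 33.8 and 51.3 CPM in WT livers. Neither was high in WT 1, and dHSC 17 was the lowest liver in both.

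Collagens overlapped between the genotypes. All 18 listed collagens were tested, 0 were called and none had groups that did not overlap. That is near the share over all genes, of which 2.24% were higher and 2.16% lower without overlap. Their median log2 difference was -0.05, and 0.40 without WT 1. Col1a1, a chain of the main scar collagen, had 12.7, 9.50 and 5.84 CPM in dHSC livers, against 27.1, 5.49 and 6.54 CPM in WT livers. Col3a1, the collagen of reticular fibres, had 52.5, 36.6 and 41.6 CPM in dHSC livers, against 75.0, 35.0 and 34.5 CPM in WT livers. WT 1 was the highest liver in both. WT 7 and 13 lay below all dHSC livers for Col3a1, and for Col1a1 WT 13 stood just above dHSC 17. The log2 difference was -0.48 (-1.58 to 0.63) for Col1a1 and -0.14 (-1.02 to 0.73) for Col3a1. Col18a1, a basement membrane collagen made by hepatocytes, had 604, 489 and 66.2 CPM in dHSC livers, against 363, 416 and 524 CPM in WT livers, where dHSC 17 was far below the other 5 and the interval ran -2.25 to 1.91.

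Fn1, fibronectin, a matrix glycoprotein that hepatocytes also secrete, had 1692, 1733 and 1028 CPM in dHSC livers, against 1567, 1543 and 1687 CPM in WT livers, with a log2 difference of -0.11 (-1.005 to 0.79). It belongs to the matrix and crosslinking list, which holds proteoglycans, fibulins, lysyl oxidases and basement membrane glycoproteins and had 22 of 22 tested genes with a log2 difference below 0. The median was -0.40, with 0 called and 1 lower at an unadjusted p below 0.05 beside 1.11% of all genes, and without WT 1 it was 0.10. Mgp, matrix Gla protein, had 1.222, 1.77 and 2.32 CPM in dHSC livers, against 26.9, 1.85 and 1.32 CPM in WT livers. Fbln2, fibulin-2, had 4.30, 2.80 and 4.15 CPM in dHSC livers, against 21.7, 2.52 and 3.27 CPM in WT livers. Bgn, biglycan, had 109, 101 and 81.3 CPM in dHSC livers, against 118, 82.7 and 101 CPM in WT livers. WT 1 was the highest of the 6 livers in all 3, far above the others for Mgp and Fbln2 and only slightly above for Bgn. The mesothelium and fibroblast list had a median of -1.12 and of 0.27 without WT 1, and summed levels of 27.6, 27.0 and 20.4 CPM in the dHSC livers and 109.7, 26.7 and 20.8 CPM in the WT livers. WT 1 exceeded 4 times every other liver in 3 of its 18 genes, beside 228 of the 14835 genes tested. Adipoq, the adipocyte hormone adiponectin, had 0, 0.368 and 0.844 CPM in dHSC livers, against 20.1, 0.168 and 0.115 CPM in WT livers. Plin1, another member of the pancreas and fat list, had 0, 0.221 and 0.352 CPM in dHSC livers, against 11.2, 0 and 0 CPM in WT livers. So WT 1 was high for these fat genes as well as for muscle genes. The summed pancreas and fat list was lowest in WT 1, at 1036 CPM against 2276 to 3823 CPM in the others. That sum was carried by other members of the list, so it does not measure Adipoq or Plin1. WT 1 exceeded 4 times every other liver in 6 of the 17 genes of that list.

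TGF-beta and PDGF signalling drives stellate cell activation. Of its 27 tested genes, 0 were called, and the median log2 difference was -0.16, and 0.12 without WT 1. Tgfb1, the main fibrogenic cytokine, had 11.8, 13.4 and 17.9 CPM in dHSC livers, against 14.2, 8.07 and 12.1 CPM in WT livers. Pdgfrb, the PDGF receptor of stellate cells, had 13.6, 10.4 and 8.51 CPM in dHSC livers, against 15.3, 11.1 and 9.87 CPM in WT livers. Smad7, the inhibitory SMAD of the pathway, had 15.2, 14.9 and 9.14 CPM in dHSC livers, against 19.4, 19.4 and 15.4 CPM in WT livers. Tgfb1 and Pdgfrb overlapped between groups, with log2 differences of 0.33 (-0.34 to 0.998) and -0.16 (-0.72 to 0.41). For Smad7 the groups did not overlap, which was so for 1 of the 27 genes beside 2.16% of all genes, and WT 13 and dHSC 5 nearly touched at a log2 difference of -0.47 (-1.37 to 0.44).

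**Figure D3:**
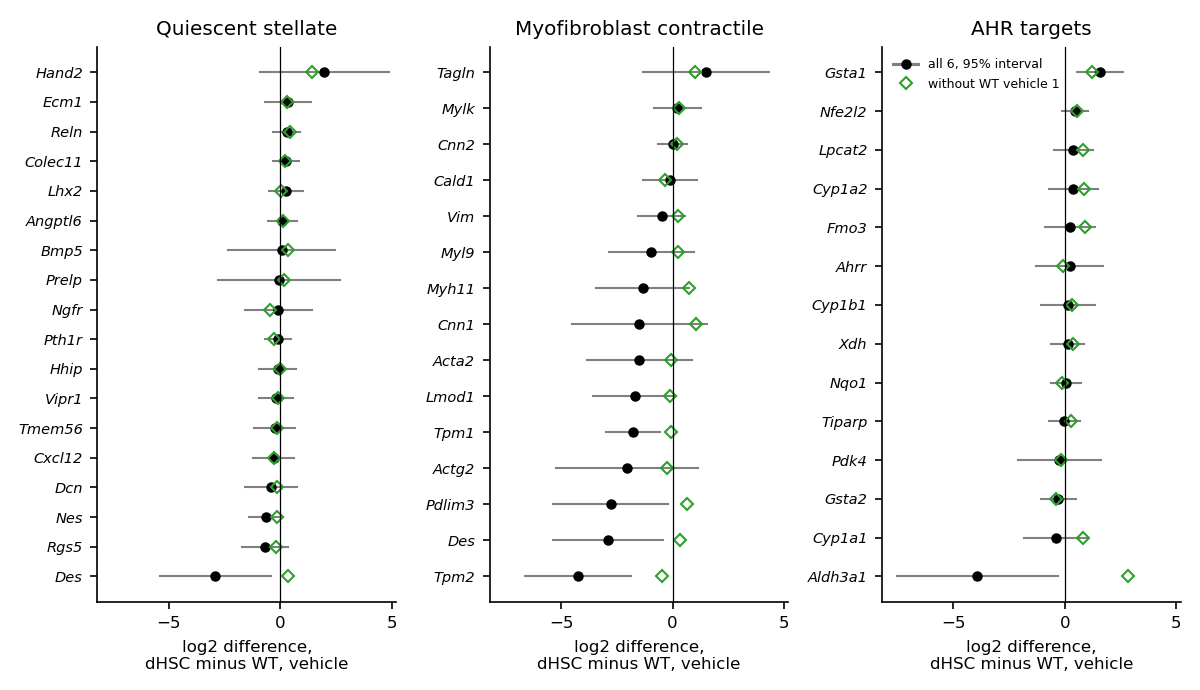
Log2 difference, dHSC vehicle minus WT vehicle, of each tested gene of 3 lists (horizontal axis), with black points and 95% intervals from all 6 livers and green diamonds from the fit without WT 1. Most intervals span 0; Tpm1, Tpm2, Pdlim3 and Des lie below 0 with all livers and between -0.47 and 0.67 without WT 1.

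AHR target genes, the list most directly tied to the deleted receptor, had interleaved levels in the 2 genotypes for the 3 cytochromes. Of 17 listed, 14 were tested, 0 were called, 9 were above and 5 below 0, and the median log2 difference was 0.13, 0.44 without WT 1 and -0.02 without WT 7. Cyp1a1, which oxidises polycyclic aromatic compounds, had 16.7, 3.24 and 15.1 CPM in dHSC livers, against 33.2, 5.04 and 8.04 CPM in WT livers. Cyp1a2, its sister enzyme with high basal expression in hepatocytes, had 1665, 1287 and 1693 CPM in dHSC livers, against 1841, 1465 and 260.3 CPM in WT livers. Cyp1b1, the family member known from non-parenchymal liver cells, had 1.54, 2.14 and 3.24 CPM in dHSC livers, against 2.52, 1.01 and 2.70 CPM in WT livers. In each of the 3 the livers of both groups were interleaved, and WT 13 was far lower than the other 5 for Cyp1a2. The log2 differences were -0.40 (-1.82 to 1.01), 0.38 (-0.72 to 1.48) and 0.14 (-1.07 to 1.35).

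Among the feedback genes, Ahrr had 0.181, 0.221 and 0.422 CPM in dHSC livers, against 0.115, 0.0560 and 0.517 CPM in WT livers. Tiparp had 10.0, 11.7 and 7.46 CPM in dHSC livers, against 13.2, 6.84 and 9.47 CPM in WT livers. Ahrr rested on few reads, with 13 reads over the 3 dHSC livers and 12 over the 3 WT livers, and Tiparp, at -0.02 (-0.73 to 0.69), was bounded within a 2-fold change. Nqo1, a quinone reductase that answers to both AHR and NRF2, had 20.1, 21.1 and 20.4 CPM in dHSC livers, against 15.1, 24.8 and 19.5 CPM in WT livers, a log2 difference of 0.05 (-0.61 to 0.72). Nfe2l2, which encodes NRF2 itself, had 77.8, 73.2 and 126 CPM in dHSC livers, against 73.5, 74.3 and 53.4 CPM in WT livers, with dHSC 17 the highest. Aldh3a1, an aldehyde dehydrogenase, had 0, 0.147 and 0 CPM in dHSC livers, against 2.24, 0 and 0 CPM in WT livers, so all 39 WT reads came from WT 1, and the dHSC livers had 2 reads in all. For scale, Cyp1a1 had 5486, 5576 and 2449 CPM in the dHSC TCDD livers and 5873, 8328 and 5089.6 CPM in the WT TCDD livers.

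Among the immune lists, interferon-stimulated genes and inflammatory mediators had medians above 0, though none of their genes passed the test. Of 21 tested interferon-stimulated genes, 20 had a log2 difference above 0, beside 7056 of all 14835 genes, and the median was 0.48. In 5 of them every dHSC liver lay above every WT liver (Ifit3, Oas2, Oasl2, Mx2 and Irf7), beside 2.24% of all genes, while 0 were called. Genes of a list can vary together between livers, so these counts are not separate observations. Summed over the list, the dHSC livers had 826, 1517 and 923 CPM and the WT livers 468, 848 and 1035 CPM, which overlapped. Oas2, an antiviral RNA sensor, had 4.35, 5.01 and 24.1 CPM in dHSC livers, against 2.75, 2.58 and 2.93 CPM in WT livers. Irf7, the regulator of interferon production, had 48.6, 79.6 and 100.4 CPM in dHSC livers, against 34.1, 48.1 and 48.5 CPM in WT livers, so dHSC 5 and WT 13 nearly touched. Ifit1, an RNA-binding antiviral protein, had 28.7, 26.4 and 29.5 CPM in dHSC livers, against 4.36, 24.8 and 27.4 CPM in WT livers. dHSC 17 was the highest of the 6 livers in each, far above the rest for Oas2, and WT 1 was the lowest for Irf7 and Ifit1, far below the rest for Ifit1. The log2 difference of Oas2 was 2.01 (0.10 to 3.93, unadjusted p = 0.0401, adjusted p = 1, edgeR) and 0.76 without dHSC 17. The list's median was 0.29 without WT 1, 0.56 without dHSC 17 and 0.87 without WT 13.

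The cytokine and chemokine list had a median of 0.62 over 15 tested genes, with 0 called and 2 higher at an unadjusted p below 0.05 beside 0.371% of all genes. With 1 liver left out the median ran from 0.39 (without dHSC 17) to 1.02 (without dHSC 5). Il1b, the inflammasome cytokine interleukin-1 beta, had 5.57, 4.199 and 3.87 CPM in dHSC livers, against 2.41, 1.18 and 2.35 CPM in WT livers. Cxcl1, a neutrophil chemoattractant, had 3.35, 9.06 and 7.39 CPM in dHSC livers, against 1.43, 3.47 and 1.15 CPM in WT livers. Icam1, an adhesion molecule, had 12.2, 12.7 and 8.79 CPM in dHSC livers, against 16.3, 7.12 and 10.3 CPM in WT livers. All dHSC livers lay above all WT livers for Il1b, by contrast with Cxcl1, where WT 7 was just above dHSC 5, and Icam1, where the groups were interleaved. The log2 differences were 1.20 (0.09 to 2.31) for Il1b, 1.70 (0.30 to 3.10) for Cxcl1 and -0.01 (-0.82 to 0.81) for Icam1. Resident macrophages had 14 of 15 Kupffer cell genes above 0, a median of 0.35 and no gene without overlap, beside 2.24% of all genes higher and 2.16% lower. The median was 0.07 without WT 7 and 0.67 without WT 13. Clec4f, the Kupffer cell lectin, had 151, 182 and 251 CPM in dHSC livers, against 137, 64.5 and 170.0 CPM in WT livers, with WT 7 the lowest of the 6. The neutrophil list had a median of 0.52 over 10 tested genes, which was -0.03 without dHSC 17 and 0.15 without WT 1.

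Hepatocyte lists had medians near 0, with wide intervals for single genes. The median was -0.15 for 19 hepatocyte identity genes, 0.01 for 19 pericentral genes, -0.16 for 17 periportal genes, -0.19 for 28 CYP2 and CYP3A genes and 0.00 for 18 bile acid genes, with 0 called in each. Hnf4a, the master regulator of hepatocyte identity, had 665, 689 and 702 CPM in dHSC livers, against 990.4, 582 and 648 CPM in WT livers, a log2 difference of -0.11 (-0.73 to 0.51). Cps1, the first enzyme of the urea cycle, had 5371, 4781 and 693 CPM in dHSC livers, against 3467, 4409.7 and 4438 CPM in WT livers, where dHSC 17 was far below the other 5 and the interval ran -2.02 to 1.65. Alb, serum albumin, had 73754, 60812 and 77635 CPM in dHSC livers, against 68097, 117275 and 71840.4 CPM in WT livers, a log2 difference of -0.28 (-1.17 to 0.61), with WT 7 the highest. Fatty acid oxidation, triglyceride synthesis, cholesterol synthesis and glucose metabolism had medians between 0.02 and 0.09, with 0 called. The 19 cholesterol synthesis genes all lay between -0.21 and 0.27. Genes expressed more in female liver had a median of 0.34, with 17 of 21 above 0 and 0 called. None was without overlap, beside 2.24% of all genes higher and 2.16% lower. Their median was -0.01 without dHSC 11 and 0.64 without WT 13. Nuclear genes of oxidative phosphorylation had a median of -0.23, with 14 of 18 below 0 and 0 called, and -0.11 without WT 7.

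**Figure D4:**
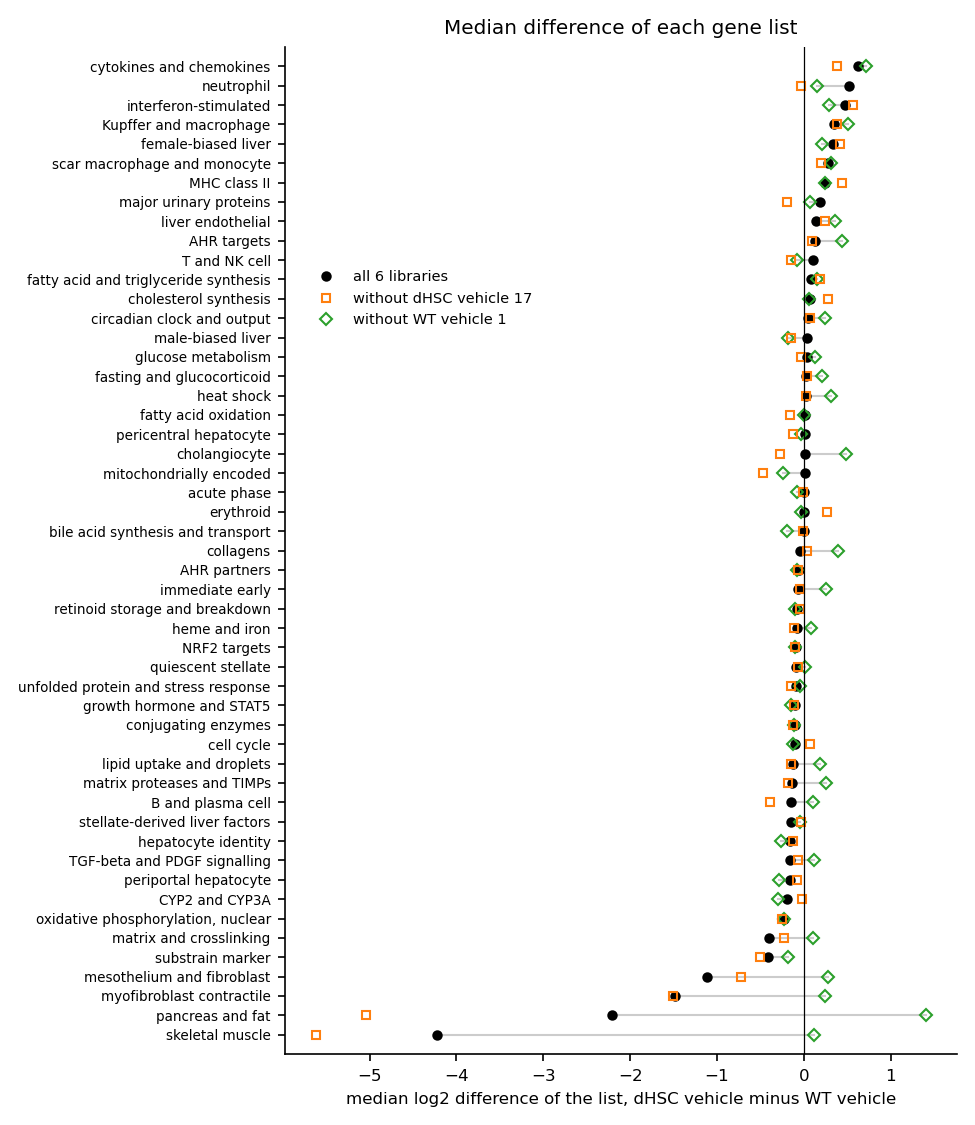
Median log2 difference, dHSC vehicle minus WT vehicle, of the tested genes of each of the 51 lists (horizontal axis), from all 6 livers (black), without dHSC 17 (orange squares) and without WT 1 (green diamonds). The 4 lowest lists lie between -4.23 and -1.12 with all livers and between 0.12 and 1.41 without WT 1, while the quiescent stellate and retinoid lists stay within 0.10 of 0 in these 3 fits.

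The TCDD mice share no library with the vehicle comparison and give the genotype difference in other mice. One of them, dHSC 18, stood farthest of the 18 libraries on the first principal component, at 99.4, with 28.4% of its counts from mitochondrial genes, against 4.52% to 9.96% in the other 17. Among 14835 genes, 0 were called between dHSC TCDD and WT TCDD livers (0%), and 539 had an unadjusted p below 0.05 (3.63%). Of the 20 named genes, 12 had the same sign as in vehicle mice, 7 of the 10 on the lower side and 5 of the 10 on the higher side. The median log2 difference was -0.15 in TCDD mice beside -2.26 in vehicle mice for the lower side, and -0.06 beside 1.58 for the higher side. The vehicle medians come from the livers in which the genes were picked, so they tend to overstate the difference. The gap between vehicle and TCDD medians therefore cannot be read as an effect of TCDD. Beside 4.38% of all genes with every dHSC TCDD liver below every WT TCDD liver, and 3.78% with every one above, 2 of the 20 did not overlap in the same direction and 1 in the opposite direction. Serpine2 was again lower in all 3. It had 2.21, 3.26 and 1.86 CPM in dHSC TCDD livers, against 6.96, 3.53 and 3.68 CPM in WT TCDD livers, a log2 difference of -0.94 (-1.67 to -0.22, unadjusted p = 0.0142, adjusted p = 1, edgeR). WT 8 and dHSC 12 stood closest, and without dHSC 18 the difference was -0.78 (unadjusted p = 0.0555, adjusted p = 0.995, edgeR). Averaged over vehicle and TCDD mice, with 6 livers a side, its difference was -1.10 (unadjusted p = 3.20e-04, adjusted p = 0.832, edgeR), and 0 of 14835 genes were called in that fit, where 573 had an unadjusted p below 0.05 (3.86%). The average includes the vehicle livers from which Serpine2 was picked, so its p is not separate support. Rab6b and 2610035D17Rik, which overlapped between the TCDD groups, had averaged differences of -1.77 and -1.59 (unadjusted p = 3.58e-04 and 3.38e-04, edgeR).

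Atp6v0e2 was the other gene with no overlap in the same direction, by a smaller margin. It had 1.92, 1.93 and 1.86 CPM in dHSC TCDD livers, against 2.29, 2.79 and 2.19 CPM in WT TCDD livers, a log2 difference of -0.35 (-1.12 to 0.43). Rab6b had 2.88, 2.37 and 2.87 CPM in dHSC TCDD livers, against 5.31, 2.73 and 3.39 CPM in WT TCDD livers, and 2610035D17Rik had 2.58, 2.22 and 3.73 CPM in dHSC TCDD livers, against 4.35, 1.54 and 3.43 CPM in WT TCDD livers. Both overlapped between the TCDD groups, with log2 differences of -0.50 and -0.13, beside -3.03 and -3.04 in vehicle mice, and of -0.54 and -0.38 without dHSC 18. Gsta1 had 9.44, 12.51 and 13.4 CPM in dHSC TCDD livers, against 20.1, 38.3 and 25.5 CPM in WT TCDD livers, a log2 difference of -1.25 (-2.22 to -0.27) beside 1.60 in vehicle mice. All dHSC TCDD livers lay below all WT TCDD livers, the opposite of vehicle mice, and without dHSC 18 the TCDD difference was -1.35. The difference between the 2 genotype differences was -2.84 for Gsta1 (unadjusted p = 6.14e-04, adjusted p = 1, edgeR) and 2.91 for 2610035D17Rik (unadjusted p = 7.27e-04, adjusted p = 1, edgeR). This test includes the vehicle difference by which both genes were picked, so neither p is separate support. Over all genes that test called 0 (0%), with 233 at an unadjusted p below 0.05 (1.57%) and 388 without dHSC 18. Hmgn3 had 3.17, 1.53 and 4.37 CPM in dHSC TCDD livers, against 1.42, 1.25 and 1.57 CPM in WT TCDD livers, a log2 difference of 1.08, and 0.72 without dHSC 18. The interferon list, whose median was 0.48 in vehicle mice, stood at 0.30 in TCDD mice with 16 of 21 genes above 0 and none without overlap, and the cytokine list, at 0.62, stood at -0.75.

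**Figure D5:**
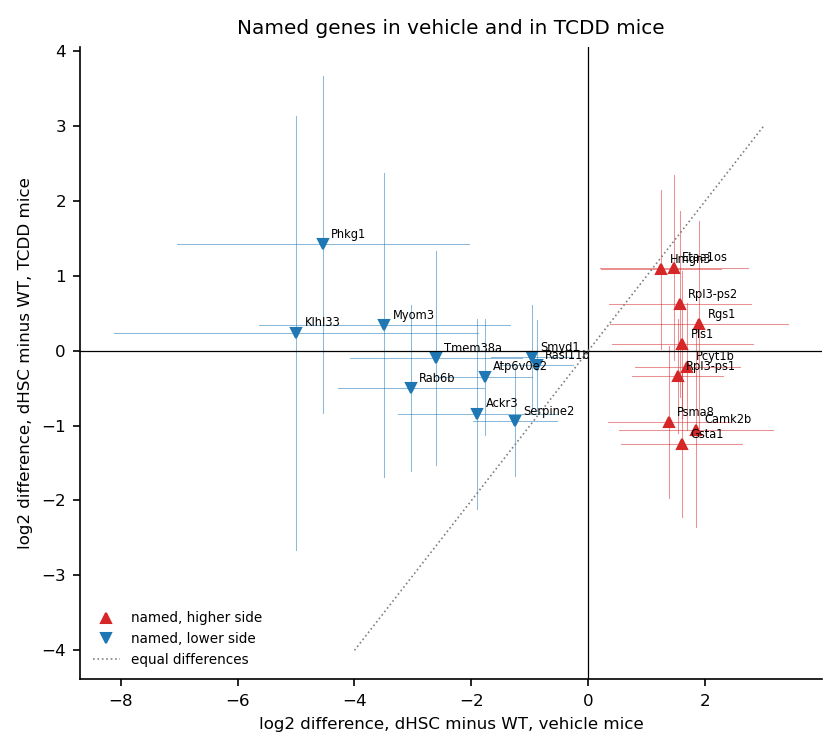
Log2 difference, dHSC minus WT, of the 20 named genes in TCDD mice (vertical axis) against vehicle mice (horizontal axis), with 95% intervals as thin lines and a dotted line where both would be equal. Serpine2, at -1.25 and -0.94, and Hmgn3, at 1.24 and 1.08, lie near that line, and Gsta1 lies at 1.60 and -1.25.

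Vehicle livers lacking AHR in hepatocytes were set directly against the dHSC vehicle livers, since separate differences to WT would share the WT mice. Serpine2, Rab6b and 2610035D17Rik were picked by their values in these same dHSC livers, so their differences here are not separate support. That comparison called 0 of 14835 genes (0%), with 491 at an unadjusted p below 0.05 (3.31%). The livers dHep 9 and 15 stood at 76.2 and 57.3 on the first principal component, on the side of dHSC 17, and that number was 82 without these 3 livers, 952 without dHSC 17 alone and 1772 without dHep 3. Serpine2 had 5.52, 4.27 and 6.33 CPM in dHSC livers, against 6.78, 5.12 and 3.40 CPM in dHep livers, a log2 difference of 0.07 (-0.64 to 0.78). The groups overlapped, and the difference was -0.46 without dHSC 17 and dHep 9 and 15. 2610035D17Rik had 0.317, 0.221 and 0.774 CPM in dHSC livers, against 3.78, 5.17 and 2.26 CPM in dHep livers, which did not overlap, with a log2 difference of -3.09 (-4.22 to -1.97, adjusted p = 0.316, edgeR). It was -3.75 without dHSC 17 and dHep 9 and 15 (adjusted p = 0.907, edgeR). Rab6b had 0.272, 0.663 and 0.422 CPM in dHSC livers, against 2.17, 2.08 and 1.59 CPM in dHep livers, a log2 difference of -2.12 (-3.36 to -0.89, adjusted p = 0.928, edgeR).

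The AHR cytochromes had values on both sides in this direct comparison. Cyp1a2 had 1665, 1287 and 1693 CPM in dHSC livers, against 256, 344 and 473 CPM in dHep livers, a log2 difference of 2.11 (0.97 to 3.26). Cyp1a1 had 16.7, 3.24 and 15.1 CPM in dHSC livers, against 78.9, 86.9 and 25.9 CPM in dHep livers, a log2 difference of -2.45 (-3.94 to -0.97). Cyp1b1 had 1.54, 2.14 and 3.24 CPM in dHSC livers, against 10.7, 21.2 and 3.92 CPM in dHep livers, a log2 difference of -2.38 (-3.61 to -1.16). The share of all genes without overlap was not counted for this comparison, so it is not known how common that is. In none of the 3 cytochromes did the groups overlap, with dHSC livers higher for Cyp1a2 and lower for the others. Their adjusted p was 0.928 in edgeR's quasi-likelihood test, so none passed. Without dHSC 17 and dHep 9 and 15 the log2 differences were 2.53 for Cyp1a2, -2.97 for Cyp1a1 and -2.55 for Cyp1b1, with 1 dHep liver assumed to vary like the other groups.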

How the data were processed

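Whole-liver poly-A RNA from 18 mice was sequenced, 1 library per mouse and 3 mice per group. The authors deposited a raw count of reads per Ensembl gene for each library. Per the submitters' processing notes the genome was GRCm38 and the tools included HISAT2 2.1.0, HTSeq 0.11.3, DESeq2 1.22.2 and FastQC 0.11.9, and per the labels NEBNext Ultra libraries were made from RNA with RIN above 6.8. Gene names, types and coordinates were taken from GENCODE M21 (GRCm38).

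From the deposited counts, all 18 libraries entered one edgeR 4.0.16 quasi-likelihood model (R 4.3.3) with a mean per group, TMM scaling, edgeR's expression filter, which left 14835 of 55536 genes, and Benjamini-Hochberg adjustment over these, with a call at an adjusted p below 0.05. CPM values are after TMM scaling and are not per length, so levels are not compared between genes. Total counts of the 6 livers ran from 13678637 to 23294076, the biological coefficient of variation was 0.448, and intervals are 95% intervals of the fitted log2 difference. P-values measure the spread between mice. Alternatives tried were DESeq2 1.42.0, DESeq2-type scaling in edgeR, no filter, a filter of 1 CPM in 3 libraries and a fit of the compared groups only. A covariate for the share of non-coding counts and leaving out each library of the compared groups were tried as well. The scripts were tested on simulated data.

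The genes named are the 10 per direction with the smallest unadjusted p, a mean of at least 1 CPM in a group, a gene symbol that is not a predicted or clone name, and no overlap between groups. Up to 4 abundant or defining members of each of 51 gene lists (867 genes, 761 tested) were added. Bmp5, Prelp, Hgf, Mgp, Fbln2, Smad7, Cyp26b1, Oas2, Ifit1, Il1b, Aldh3a1, Adipoq and Plin1 were chosen after their values were seen. The comparison and the lists were themselves chosen with earlier results of these data known.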

Additional observations from a re-analysis of the deposited data

How the results depend on the processing

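By edgeR, 0 genes were called between dHSC and WT vehicle livers under RLE scaling, without a filter, with at least 1 CPM in 3 libraries, in a fit of the 2 groups only, with a covariate for the share of non-coding counts, and averaged over vehicle and TCDD mice, an alternative chosen after seeing the data. Leaving out each library in turn gave 0 to 0 calls in every comparison. The values without dHSC 17 and dHep 9 and 15 together, where 0 genes were called between dHSC and dHep livers, were likewise chosen after seeing the data. The number of genes at an unadjusted p below 0.05 ran from 110 without WT 1 and dHSC 17 to 594 without a filter, and the lowest adjusted p from 0.112 to 1. DESeq2 called 5 genes against 0 by edgeR, with Rab6b and Atp6v0e2 past its threshold, and the cause was not tested. No named gene changed direction in the alternatives read for it, which did not include the covariate. The named genes were chosen for groups without overlap, so leaving out livers could hardly reverse them, and this is no support for them. Of 357 list medians, 40 moved by more than the spread between livers, and Phkg1 and Klhl33 were not tested in 2 of the alternatives. The groups share no mouse number, but the numbers run in 3 sets of 6 that each hold 1 mouse of every group, which the labels do not call a batch. Deviations from the group means correlated at -0.03, -0.27 and -0.30 within these sets between dHSC and WT livers. These few correlations cannot show whether the sets affected the livers. In the last set, dHep 15, dHep TCDD 16, dHSC 17 and dHSC TCDD 18 stood at 57.3, 50.3, 51.7 and 99.4 on the first principal component. WT 13 and WT TCDD 14 of that set stood at -39.4 and -23.2. A replicate block on the sets, chosen after seeing the data, gave 0 calls, with 199 genes at an unadjusted p below 0.05. With 3 mice a side, depth limits genes under 1 CPM most, where the median half-width of the interval was 1.79 on the log2 scale.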
